A study of Mus musculus with 14 samples.

Results

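Imprinted genes other than Igf2 were described in the epicardial and subepicardial layer of the fetal mouse heart. The members are 37 known imprinted mouse genes, named by a list of gene symbols and by no threshold on a measured value. The list was chosen with earlier results of these data known. All 37 were among the 15894 genes of the normalized table. RNA was measured in 14 libraries from hearts at E16.5, each from a pool of 2 dissected layers, with 3 ventral and 3 dorsal libraries from females and 4 ventral and 3 dorsal ones from males. The remaining library, from male hearts, is dorsal in its title and ventral in its tissue label, so it entered no comparison. All groups carried the genotype Tbx18Cre in the labels, the study calls the hearts wild type, no treatment was given, and the pools came from at least 3 litters. The ventral and dorsal faces were compared in each sex and over both sexes, since lymphatic vessels enter the ventricles from both faces. The female libraries are numbered 1 to 3 and the male libraries 4 to 7. The labels name no batch, and any batch that followed these numbers cannot be told apart from sex.

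An imprinted gene is transcribed mainly from the copy inherited from a single parent. DNA methylation laid down in the germ line marks an imprinting control region on either the maternal or the paternal copy. Imprinted genes lie in clusters in which a long noncoding RNA is often transcribed from the parental copy on which the protein-coding neighbours are silent. Many genes expressed from the paternal copy favour fetal growth and many expressed from the maternal copy restrain it, and a large share of them are strongly transcribed in embryonic mesenchyme and muted after birth. The libraries measured poly(A)-selected RNA per gene, with both parental copies counted together, and hold no information on which copy was read.

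The promoter windows of 6 members are shown as examples of genes called between the faces in females. Each window runs from 250 bases before to 50 bases after a start site annotated by RefSeq on GRCm38.p6, and is written 5′ to 3′ on the strand of the gene. Capitals mark TGCCGC, searched on both strands (as GCGGCA on the other), the core recognised by the imprint-keeping zinc finger protein ZFP57 when methylated, and TGACGTCA, the palindrome bound by cAMP response factors, which was added after the windows had been read. The 2 motifs do not overlap in the windows printed. For Zdbf2 the printed window was picked because it holds the palindrome, and for the other genes the window farthest upstream was taken. The other window of Zdbf2 (chr1:63200108-63200407, plus strand) holds 3 matches of TGCCGC and no TGACGTCA.
Zdbf2 (chr1:63273019-63273318, plus strand): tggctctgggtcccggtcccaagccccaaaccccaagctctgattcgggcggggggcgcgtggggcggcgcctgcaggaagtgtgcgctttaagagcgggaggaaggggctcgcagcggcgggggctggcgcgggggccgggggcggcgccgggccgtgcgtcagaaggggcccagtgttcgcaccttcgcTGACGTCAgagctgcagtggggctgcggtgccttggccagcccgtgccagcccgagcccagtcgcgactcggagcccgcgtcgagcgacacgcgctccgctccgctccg
Dlk1 (chr12:109452573-109452872, plus strand): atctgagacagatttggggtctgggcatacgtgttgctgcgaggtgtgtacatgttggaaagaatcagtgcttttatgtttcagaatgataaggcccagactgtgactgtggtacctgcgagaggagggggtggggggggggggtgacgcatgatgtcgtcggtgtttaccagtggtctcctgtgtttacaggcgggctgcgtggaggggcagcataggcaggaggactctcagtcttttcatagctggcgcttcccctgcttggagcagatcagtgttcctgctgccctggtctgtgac
Meg3 (chr12:109540746-109541045, plus strand): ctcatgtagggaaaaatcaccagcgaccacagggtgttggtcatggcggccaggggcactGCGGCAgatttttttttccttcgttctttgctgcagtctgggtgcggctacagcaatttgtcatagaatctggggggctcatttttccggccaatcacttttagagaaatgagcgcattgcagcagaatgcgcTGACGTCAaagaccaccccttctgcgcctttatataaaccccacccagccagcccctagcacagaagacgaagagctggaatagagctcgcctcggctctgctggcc
Peg3 (chr7:6730370-6730669, minus strand): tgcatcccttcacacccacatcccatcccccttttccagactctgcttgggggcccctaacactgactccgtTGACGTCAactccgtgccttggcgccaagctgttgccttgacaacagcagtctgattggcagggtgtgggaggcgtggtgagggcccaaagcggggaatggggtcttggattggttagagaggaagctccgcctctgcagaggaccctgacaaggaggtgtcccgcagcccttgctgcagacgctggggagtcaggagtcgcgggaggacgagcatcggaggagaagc
Slc38a4 (chr15:97055907-97056206, minus strand): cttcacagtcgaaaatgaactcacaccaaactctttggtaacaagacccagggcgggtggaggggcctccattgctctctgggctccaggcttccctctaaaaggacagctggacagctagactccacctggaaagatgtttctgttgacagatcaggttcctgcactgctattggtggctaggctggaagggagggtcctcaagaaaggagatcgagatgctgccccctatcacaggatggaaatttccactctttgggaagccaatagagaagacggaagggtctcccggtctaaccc
Grb10 (chr11:12037371-12037670, minus strand): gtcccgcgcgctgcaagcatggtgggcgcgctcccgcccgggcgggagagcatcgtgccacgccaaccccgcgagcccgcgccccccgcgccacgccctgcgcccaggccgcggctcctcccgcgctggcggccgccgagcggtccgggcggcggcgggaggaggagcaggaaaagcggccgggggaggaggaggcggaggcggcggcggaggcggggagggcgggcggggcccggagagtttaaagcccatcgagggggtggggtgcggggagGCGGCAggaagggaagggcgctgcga

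The table of windows held 29 of the 37 members, with 45 windows. H19, Cdkn1c, Peg10, Sgce, Impact, Peg13, Nap1l4 and Trappc9 were not matched. TGCCGC was found in 11 of the 45 member windows (24.4%) and in 3813 of 32851 windows of all genes (11.6%). TGACGTCA was found in 4 member windows (8.89%) and in 588 of all windows (1.79%), and the members with it were Zdbf2, Meg3, Peg3 and Usp29. This motif was chosen after the windows of Zdbf2, Meg3 and Peg3 had been read. Its share among members depends on that choice and cannot be compared with the share of all windows. The windows of Peg3 and Usp29 face each other on opposite strands and share 263 of their 300 bases, so that the palindrome in both is the same letters. Member windows held a median of 15 CG dinucleotides and all windows a median of 7. These counts describe the letters in the windows and no binding was measured.

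A library held between 13918995 and 25221314 reads on the genes of the table. Values are normalized CPM, that is reads plus an offset of 0.5, scaled by an effective library size set by the authors. A library is a single point in every comparison. Ventral and dorsal libraries of a number may share hearts, and both were points in the fits over both sexes and between the sexes. Xist and the Y-linked genes followed the labelled sex in each library. Xist stood at 45.5 to 152 normalized CPM in female and at no more than 7.07 in male libraries, and Eif2s3y at no more than 0.759 in female and at least 80.7 in male libraries. The labelled tissue was checked by the epicardial genes Wt1, Tbx18, Upk3b and Tcf21, all of which were detected in every library. The 10 epicardial markers summed to 1819 to 2893 normalized CPM in female ventral and 346 to 661 in female dorsal libraries, and to 2128 to 6226 in male ventral and 1689.8 to 4326 in male dorsal libraries. The 8 fibroblast markers summed to 11687 to 22285 in the ventral and 2913 to 4552 in the dorsal libraries of females, and to 10993 to 25673 and 7366 to 12693 in those of males. The 5 macrophage markers summed to 198 to 397 in female ventral and 60.1 to 108 in female dorsal libraries. The 8 ventricular cardiomyocyte markers summed to 16911 to 43725 over all 13 libraries, so muscle was present in all of them. The 4 atrial markers stood apart in female dorsal replicate 1, at 12455 against at most 1992 elsewhere, and the 3 listed erythroid markers in male ventral replicate 7, at 291 against at most 122 elsewhere. The 5 blood endothelial markers were also apart in male ventral replicate 7, at 51.6 against at least 253 elsewhere, and without this library the test between the male faces again called 0 members and that between the sexes again 7. In dissected tissue, fewer cells of a type and less RNA per cell cannot be told apart.

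**Figure D1:**
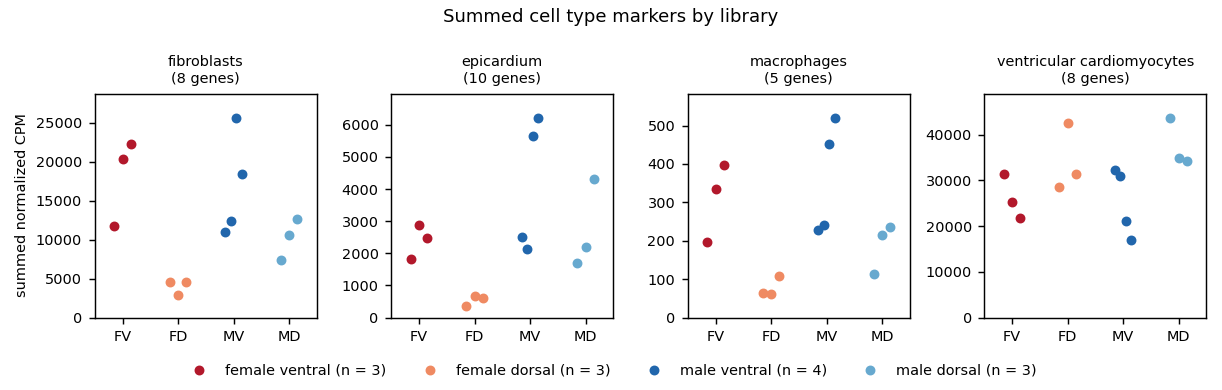
Summed normalized CPM of 4 marker lists (vertical axes, from 0) in each library, with points for ventral (FV) and dorsal (FD) pools of females and ventral (MV) and dorsal (MD) pools of males. The female ventral and dorsal libraries do not overlap for fibroblasts, epicardium or macrophages, while the male ones overlap for all 3. For ventricular cardiomyocytes the male dorsal libraries all lie above the male ventral ones, and the female groups overlap.

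Levels were compared between members only per kilobase of exon. The median over the 13 libraries was highest for Cd81, a tetraspanin found on many cells, at 549 normalized CPM per kb. Mest, a hydrolase-fold protein of the endoplasmic reticulum, followed at 328, H19 at 313 and Grb10 at 139.5. H19 ranged from 156 to 1176 per kb across libraries and Mest from 149 to 453, so the order of these neighbours was not fixed. Cdkn1c (92.8 per kb), Nap1l4 (89.6), Gnas (69.6), Dlk1 (63.2) and Slc38a4 (59.8) came next, with ranges that overlapped. At the low end, Kcnq1ot1 stood at 0.601 per kb over its long exon and Usp29 at 0.557. Phlda2, a pleckstrin homology protein that restrains placental growth, and Slc22a18, an organic cation carrier, had 3 reads or fewer in 5 of the 13 libraries each and no more than 1.48 and 3.37 normalized CPM, which is too shallow to show a moderate difference, and neither was called in any comparison.

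In female hearts the imprinted genes differed between the faces in both directions. H19, Zdbf2, the transcripts of the Dlk1-Meg3 region, Peg3 and Nnat were higher ventrally, while Slc38a4, Grb10, Mest and Nap1l4 were higher dorsally. Of the 35 members tested, 15 (42.9%) were called higher ventrally, beside 14.5% of all 14411 genes tested, and 7 (20%) were called higher dorsally, beside 13.3% of all genes (limma on log2 of the value plus 1, adjusted p under 0.05 over all genes). The median log2 change of the members was 0.26 and that of all genes 0.011, with 20 members above 0 and 15 below. With the trend of GC content and length removed these medians were 0.026 and -0.046, with 18 members above 0 and 17 below. The ventral and dorsal libraries did not overlap for 16 members that were higher ventrally (23.2% of all genes) and 9 that were higher dorsally (21.6% of all genes). Phlda2 and Slc22a18 did not reach the filter of a value of 1 in 3 libraries. At an unadjusted p under 0.05 there were 24 members, beside 40.5% of all genes. The members and lists were chosen with earlier results of these data known. Their shares here and below depend on that choice and were not tested against those of all genes. Without female dorsal replicate 2 the count of called members was 14, and without any other female library it was 15 to 19.

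The markers moved with the same contrast, and in females they cannot be told apart from region. In female hearts 9 of 10 epicardial, 6 of 8 fibroblast, 5 of 5 macrophage and 3 of 4 lymphatic markers were called higher ventrally, with median log2 changes of 2.29, 1.996, 1.90 and 1.44. In the other direction 2 of 4 smooth muscle markers (median -0.85), 1 of 4 atrial (median -0.83) and 1 of 3 erythroid markers (median -0.41) were called higher dorsally. With the mean of the fibroblast markers as a covariate, a fit added after the data were seen, limma called 0 of the 14411 genes, with 880 of them, 3 members among these, at an unadjusted p under 0.05, while edgeR and DESeq2 without the covariate called 3650 and 4393 genes. With the mean of the epicardial markers as the covariate 24 genes and 0 members were called. In that fit too, 3 members had an unadjusted p under 0.05.

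**Figure D2:**
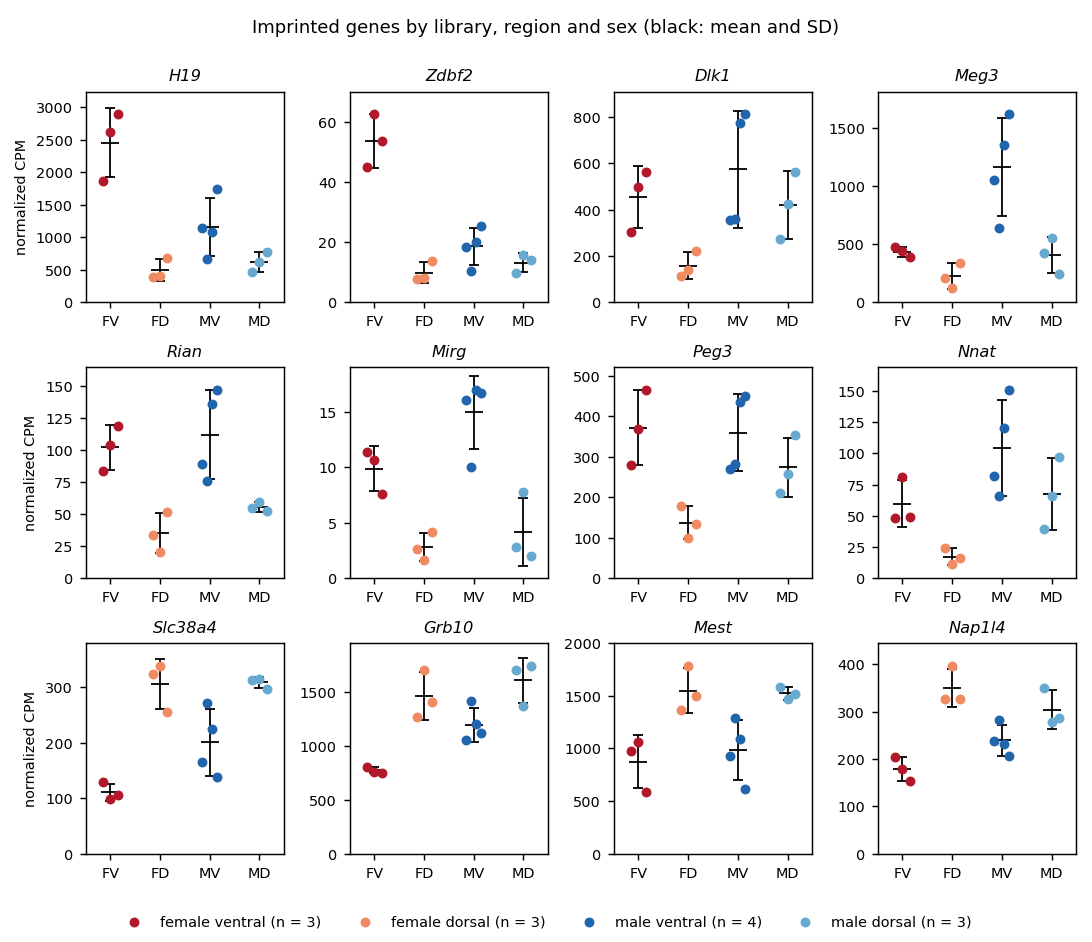
Normalized CPM (vertical axes, from 0) of 12 imprinted genes in each library of 4 groups, with black bars for the mean and SD. The female ventral and dorsal points are apart in all 12 panels, and Slc38a4, Grb10, Mest and Nap1l4 are the panels in which the dorsal points are higher.

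Of the 6 long noncoding RNAs, 5 were called higher ventrally in females and 0 dorsally, beside 14.5% and 13.3% of all genes. Their median log2 change was 1.49. Meg3 and Kcnq1ot1 lost the call once the trend with GC content and length was removed. H19, on chromosome 7, 142575529 to 142578143 of GRCm38, is a maternally expressed RNA that shares its control region with Igf2, and its exon carries the hairpin of a microRNA. Both mature strands of that microRNA are shown to identify it, with the seed (bases 2 to 8) in capitals. They were not measured in these poly(A) libraries.
mmu-miR-675-5p: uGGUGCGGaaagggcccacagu
mmu-miR-675-3p: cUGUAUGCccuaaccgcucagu
H19 stood at 1857, 2620.1 and 2894 normalized CPM in the 3 female ventral libraries and at 384, 402 and 688 in the female dorsal ones. Every ventral library was above every dorsal one, and the group means were 2457 ± 537 and 491 ± 171 (SD, n = 3 each). The change was 5.09-fold, a log2 change of 2.35 ± 0.26 (SE), with a limma adjusted p of 0.000614, and it was called under all 17 alternative settings (counts of such settings here and below leave out the marker covariates). In male hearts H19 stood at 1147, 658, 1079.7 and 1749 ventrally and 461, 626 and 769.6 dorsally. The lowest male ventral library lay among the dorsal ones, and the log2 change was 0.85 ± 0.30 with an adjusted p of 0.305.

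Meg3, Rian and Mirg are transcribed in the same direction on chromosome 12 from the maternal copy of the Dlk1-Meg3 region, where Rian hosts small nucleolar RNAs and Mirg hosts microRNAs. Meg3 (109541001 to 109571726) stood at 475, 439 and 386 normalized CPM in female ventral and 212, 126 and 342 in female dorsal libraries. It stood at 1049.5, 638, 1357 and 1621 in male ventral and 428, 555 and 242 in male dorsal libraries. The faces did not overlap in either sex, and the highest levels were those of the male ventral libraries. The log2 change was 1.04 ± 0.30 in females (adjusted p = 0.0276) and 1.51 ± 0.35 in males (adjusted p = 0.264). The female call was lost in 9 of 17 alternative settings, among them the omission of any female library but dorsal replicate 3, and the adjusted p reached 0.133. When libraries of the same number were paired as blocks, the male change was 1.33 and was called (adjusted p = 0.0386).

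Rian stood at 83.6, 104 and 119 ventrally and 33.6, 20.1 and 51.5 dorsally in female hearts. In male hearts it stood at 89.2, 75.6, 136 and 147 ventrally and 54.4, 59.5 and 52.1 dorsally. The 7 ventral libraries were all above the 6 dorsal ones, and the log2 changes were 1.60 ± 0.29 in females (adjusted p = 0.00426) and 0.95 ± 0.23 in males (adjusted p = 0.285). Mirg was low, at 11.4, 10.7 and 7.60 in female ventral and 2.61, 1.61 and 4.12 in female dorsal libraries. Male ventral libraries held 16.1, 10.1, 17.01 and 16.7 and male dorsal ones 2.77, 7.73 and 2.02. Its faces did not overlap within either sex, with log2 changes of 1.56 ± 0.34 (adjusted p = 0.00865) and 1.76 ± 0.39 (adjusted p = 0.264). Over both sexes the changes of Meg3, Rian and Mirg were 1.29, 1.25 and 1.67 on the log2 scale, all called (adjusted p = 0.00782, 0.00678 and 0.00593) and called in all of 23 or 24 alternative settings.

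Kcnq1ot1, the paternally expressed antisense RNA that silences Cdkn1c and its neighbours on the same copy, stood at 101, 121 and 85.8 in female ventral and 56.0, 24.0 and 38.8 in female dorsal libraries. Male values were 114, 47.0, 88.7 and 46.7 ventrally and 53.7, 59.2 and 11.3 dorsally, and they overlapped. The female log2 change of 1.42 ± 0.27 (adjusted p = 0.00518) was 0.47 once the trend with GC content and length was removed, and was then not called (adjusted p = 0.117). Its exon of 93.1 kb is far longer than that of any other member. Peg13, a paternally expressed RNA within an intron of Trappc9, had a female log2 change of -0.81 ± 0.28 (adjusted p = 0.0547), with female ventral libraries (6.60, 6.25 and 4.90) all below the dorsal ones (8.38, 12.0 and 13.4).

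The 9 members expressed from the paternal copy in embryonic mesenchyme had a median log2 change of 1.04 in female hearts. Of these, 6 were called higher ventrally and 2 dorsally, beside 14.5% and 13.3% of all genes. Dlk1, a membrane protein with EGF repeats that holds back adipocyte differentiation, stood at 303, 497 and 563 normalized CPM in female ventral libraries and 111, 141 and 222 in dorsal ones. The lowest ventral library was above the highest dorsal one, and the log2 change was 1.53 ± 0.28 (2.88-fold, adjusted p = 0.00443). Male ventral libraries held 354, 357, 774 and 811 and male dorsal ones 271, 425 and 564. These overlapped, with a log2 change of 0.40 ± 0.35 (adjusted p = 0.620). Together with Meg3, Rian and Mirg, Dlk1 makes up the 4 members of its region. All 4 were called higher ventrally in females, beside 14.5% of all genes.

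Zdbf2, a zinc finger gene on chromosome 1, 63273265 to 63314576, had the largest female change of the 35 members tested. It stood at 44.8, 62.6 and 53.6 in female ventral libraries against 7.64, 7.98 and 13.8 in dorsal ones, with means of 53.7 ± 8.87 and 9.79 ± 3.43 (SD, n = 3 each). The log2 change was 2.37 ± 0.25 (5.18-fold, adjusted p = 0.000471). In males it stood at 18.2, 10.5, 20.1 and 25.5 ventrally and 9.63, 15.7 and 14.2 dorsally. The male ventral and dorsal values overlapped, all of them lay below the lowest female ventral library, and the log2 change was 0.43 ± 0.31 (adjusted p = 0.543).

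Peg3, a Krüppel-type zinc finger protein, stood at 279.7, 369.7 and 466 in female ventral and 179, 97.9 and 134 in female dorsal libraries. Male values were 271, 283, 435 and 449 ventrally and 209.6, 257 and 355 dorsally. The female groups were apart and the male ones overlapped, with log2 changes of 1.45 ± 0.24 (adjusted p = 0.00296) and 0.39 ± 0.24 (adjusted p = 0.477). Usp29, the deubiquitinase gene that shares the promoter window with Peg3 on the opposite strand, stood at 7.07, 13.3 and 15.5 ventrally and 11.4, 9.72 and 10.8 dorsally in females. Its female groups overlapped, and its log2 change was 0.089 ± 0.30 (adjusted p = 0.850). Zim1, the next gene of the cluster and expressed from the maternal copy, stood at 20.8, 31.3 and 34.8 ventrally and 8.71, 5.31 and 7.71 dorsally in female libraries. Its log2 change was 1.85 ± 0.27 (adjusted p = 0.00186). In male libraries Zim1 was spread from 13.4 to 64.4, with 64.4, 28.4, 25.8 and 18.3 ventrally and 13.4, 33.9 and 60.6 dorsally, and the log2 change was 0.0083 ± 0.50 (adjusted p = 0.997).

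Ndn, which encodes the MAGE family protein necdin, stood at 116, 156 and 161 in female ventral and 91.5, 58.9 and 60.2 in female dorsal libraries, and at 118, 132, 182 and 231 in male ventral and 121, 112 and 151 in male dorsal libraries. The female change was 1.04 ± 0.20 on the log2 scale (adjusted p = 0.00539), and the male groups overlapped (0.33 ± 0.23, adjusted p = 0.521). Peg10, derived from a retrotransposon, stood at 14.9, 20.6 and 25.4 ventrally and 11.3, 7.32 and 6.86 dorsally in female libraries, and at 13.5, 14.1, 18.1 and 16.9 ventrally and 5.50, 9.49 and 15.4 dorsally in male ones. Its log2 change was 1.16 ± 0.28 in females (adjusted p = 0.0148) and 0.67 ± 0.32 in males (adjusted p = 0.380), and the female call was lost without ventral replicate 2 or 3 or dorsal replicate 2 (adjusted p up to 0.0544). Sgce, an epsilon-sarcoglycan read from the same promoter region on the other strand, had a log2 change of -0.026 ± 0.15 in females (adjusted p = 0.915) and lay between 66.9 and 111 in all 13 libraries.

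Plagl1, a zinc finger factor reported to act on other imprinted genes, stood at 145, 135 and 164 in female ventral and 76.4, 79.0 and 115 in female dorsal libraries. Male values were 141, 118, 106 and 124 ventrally and 134, 105 and 60.0 dorsally. The female groups were apart and the male ones overlapped, with log2 changes of 0.73 ± 0.18 (adjusted p = 0.0139) and 0.36 ± 0.24 (adjusted p = 0.516). The female call was lost without ventral replicate 3 or dorsal replicate 2 (adjusted p up to 0.0520).

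Slc38a4 and Mest, both of the same paternal group, were lower ventrally. Slc38a4, a neutral amino acid carrier, stood at 129, 98.9 and 105 in female ventral and 325, 339 and 255 in female dorsal libraries. Male libraries held 166, 272, 225 and 139 ventrally and 313, 316 and 297 dorsally. The faces did not overlap in either sex, and the ventral level was 0.364 of the dorsal one in females, a log2 change of -1.46 ± 0.16 (adjusted p = 0.000580). In males the log2 change was -0.67 ± 0.21 (adjusted p = 0.288). Mest stood at 972, 1063 and 589 ventrally and 1365, 1787 and 1497 dorsally in female libraries, and at 928, 1294, 1089.7 and 619 ventrally and 1588, 1466 and 1513 dorsally in male ones. Its faces did not overlap within either sex, and the log2 changes were -0.86 ± 0.24 (adjusted p = 0.0265) and -0.68 ± 0.24 (adjusted p = 0.303). The female call of Mest was lost in 5 of 17 alternative settings, namely without ventral replicate 3 or dorsal replicate 2 or 3, without the eBayes trend, and with the trend of GC content and length removed (adjusted p up to 0.0922). Copg2, a coat protein subunit whose last exons run antisense to Mest, stood at 46.1, 61.4 and 61.9 ventrally and 79.5, 77.6 and 79.2 dorsally in females and at 54.0, 55.8, 51.1 and 41.7 ventrally and 79.4, 85.2 and 76.9 dorsally in males. Its log2 change was -0.48 ± 0.15 in females (adjusted p = 0.0409, lost in 10 of 17 alternative settings, each single omission of a library among them) and -0.67 ± 0.15 in males (adjusted p = 0.264). On the opposite strand 20.8% of 60-base windows of Mest and 16.0% of those of Copg2 are shared between them, and the use of strand in counting is not given in the sources used here, so reads there cannot be told apart.

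Of the maternally expressed restrainers of growth, Grb10 was lower ventrally and Cdkn1c was not called. Grb10, an adaptor that binds insulin-type receptors, stood at 807, 761 and 751 in female ventral and 1268, 1702 and 1401 in female dorsal libraries, with means of 773 ± 29.7 and 1457 ± 222 (SD, n = 3 each). The log2 change was -0.90 ± 0.17 (adjusted p = 0.00556). Male libraries held 1052, 1412, 1199.8 and 1114 ventrally and 1706, 1368 and 1743 dorsally, which overlapped, with a log2 change of -0.43 ± 0.18 (adjusted p = 0.340). Cdkn1c, a cyclin-dependent kinase inhibitor on chromosome 7, 143458339 to 143461050, stood at 189, 315 and 564 in female ventral and 420.1, 322 and 974 in female dorsal libraries. It stood at 105, 86.5, 178 and 223 in male ventral and 25.8, 62.4 and 82.5 in male dorsal libraries. The female groups overlapped and the male ones did not, with log2 changes of -0.66 ± 0.44 (adjusted p = 0.294) and 1.41 ± 0.41 (adjusted p = 0.285). When libraries were paired by number the female change was called lower ventrally (adjusted p = 0.0382) and the male change of 1.18 was called higher ventrally (adjusted p = 0.0171). An overlapping gene on the other strand shares 23.8% of the windows of Cdkn1c.

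Among 6 further paternally expressed members, Nnat and Zrsr1 were called higher ventrally and Snrpn higher dorsally in female hearts. Nnat, which encodes the small membrane protein neuronatin, stood at 48.5, 81.2 and 48.8 in female ventral and 24.1, 10.9 and 15.8 in female dorsal libraries, and at 81.6, 65.7, 120.3 and 151 ventrally and 39.2, 66.1 and 97.0 dorsally in male ones. The log2 change was 1.78 ± 0.29 in females (3.43-fold, adjusted p = 0.00297) and 0.64 ± 0.34 in males (adjusted p = 0.410), where the groups overlapped. Zrsr1, a splicing factor retrogene within Commd1, stood at 12.1, 9.44 and 15.3 ventrally and 5.93, 5.20 and 6.36 dorsally in female libraries and at 5.55, 4.07, 11.3 and 10.9 ventrally and 5.10, 4.70 and 12.8 dorsally in male ones. Its female change of 0.94 ± 0.27 (adjusted p = 0.0291) was lost when any female library but ventral replicate 2 was left out (adjusted p up to 0.0925), and also on quantile normalization. Snrpn, a protein of the spliceosome, stood at 53.8, 48.3 and 54.8 ventrally and 103, 82.0 and 72.3 dorsally in female libraries and at 52.5, 58.6, 31.6 and 40.0 ventrally and 69.0, 50.8 and 43.7 dorsally in male ones. The female change was -0.69 ± 0.16 (adjusted p = 0.0125, and 0.0542 without ventral replicate 2) and the male groups overlapped (-0.26 ± 0.24, adjusted p = 0.630). Impact, an inhibitor of the kinase GCN2, and Inpp5f, a phosphoinositide phosphatase, had female log2 changes of 0.43 and -0.49 and were not called (adjusted p = 0.236 and 0.0925).

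The 13 members imprinted on the maternal copy or in certain tissues or isoforms had a median female log2 change of -0.032, and of the 12 tested 2 (16.7%) were called higher ventrally (Zim1 and Ppp1r9a) and 3 (25%) dorsally (Nap1l4, Asb4 and Copg2), beside 14.5% and 13.3% of all genes. Nap1l4, a histone chaperone, stood at 205, 179.8 and 154 in female ventral and 327, 398 and 326 in female dorsal libraries, and at 238, 283, 231 and 206 ventrally and 351, 277 and 286 dorsally in male ones. The female groups were apart, with a log2 change of -0.96 ± 0.15 (adjusted p = 0.00254), and the male change was -0.35 ± 0.15 (adjusted p = 0.354). Ppp1r9a, the actin-binding protein neurabin, stood at 41.8, 32.5 and 28.2 ventrally and 23.9, 17.6 and 18.1 dorsally in female libraries and at 26.1, 24.7, 31.1 and 18.8 ventrally and 24.2, 18.02 and 12.1 dorsally in male ones, with a female change of 0.75 ± 0.21 (adjusted p = 0.0266) that was lost in 6 of 17 alternative settings. These were the omission of ventral replicate 1 or 2 or dorsal replicate 2 or 3 (adjusted p up to 0.0880) and removal of the GC and length trend (log2 change 0.46, adjusted p = 0.126, and 0.101 with libraries also paired by number). Asb4, a substrate adaptor of ubiquitin ligases, stood at 23.6, 17.1 and 24.0 ventrally and 53.7, 30.1 and 30.5 dorsally in females and at 28.8, 36.6, 20.2 and 19.5 ventrally and 32.9, 27.9 and 31.4 dorsally in males. Its female change of -0.76 ± 0.25 (adjusted p = 0.0496) was lost in 14 of 17 alternative settings, each single omission of a library among them. Cd81, Tssc4, Trappc9, H13, Ube3a, Gnas and Commd1 had female log2 changes between -0.17 and 0.49, and were not called.

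In male hearts no imprinted gene passed the limma test between the faces. Of the 36 members tested 0 were called by limma, beside 0% of all 14917 genes, and 10 members had an unadjusted p under 0.05 (14.0% of all genes). EdgeR also called 0 members, and DESeq2 called 5, with Meg3, Mirg, Rian and Cdkn1c higher ventrally and Copg2 higher dorsally, beside 1.01% of all genes in either direction. When libraries were paired by number, 2 members (Meg3 and Cdkn1c) were called higher ventrally, beside 0.509% of all genes in either direction. Of the 36 male changes 22 were above 0 and 14 below, with a median of 0.22 against 0.030 for all genes. The epicardial and fibroblast marker sums of the male ventral and dorsal libraries overlapped, and 0 of these 18 markers were called. The male ventricular cardiomyocyte sums did not overlap, at 16911 to 32146 ventrally and 34210 to 43725 dorsally. Whether the male changes follow this difference in muscle RNA was not tested.

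Over both sexes, with sex as a covariate, 13 of the 37 members were called higher ventrally (9.80% of all 15772 genes) and 5 higher dorsally (9.06% of all genes). The median change of the members was 0.33 on the log2 scale and that of all genes 0.035. After the trend with GC content and length was removed these counts were 9 and 6, beside 1044 and 1794 of all 15772 genes. Dlk1, Plagl1, Kcnq1ot1 and Ppp1r9a were then not called, and the medians were 0.089 for the members and -0.033 for all genes. With libraries also paired by number the median of the members was 0.051, with 19 above 0 and 18 below. Peg3 and Zdbf2 lost their calls in that limma fit as well (adjusted p = 0.0512 and 0.05004). The largest change was that of Mirg (1.67 ± 0.27), followed by H19 (1.55 ± 0.29, 2.93-fold, adjusted p = 0.00696) and Zdbf2 (1.34 ± 0.32, adjusted p = 0.0142). Slc38a4 (-1.04 ± 0.17, adjusted p = 0.00647), Mest (-0.77 ± 0.18, adjusted p = 0.0126), Grb10 (-0.65 ± 0.13, adjusted p = 0.00808), Nap1l4 (-0.63 ± 0.13, adjusted p = 0.00894) and Copg2 (-0.58 ± 0.11, adjusted p = 0.00685) were the 5 that were lower ventrally. Kcnq1ot1, Nnat, Dlk1, Peg10, Peg3, Ndn, Ppp1r9a and Plagl1 were called with log2 changes from 0.53 to 1.21. Ndn was not called when libraries were paired by number (adjusted p = 0.0616). Among single omissions, the call of Dlk1 was lost without any female library but ventral replicate 1 and without male ventral replicate 6 or 7 or male dorsal replicate 4. That of Plagl1 was lost without any female library but dorsal replicate 3 and without male ventral replicate 4 or 7 or male dorsal replicate 6. Ppp1r9a lost its call on omission of replicate 1 or 2 of the female ventral group, 2 or 3 of the female dorsal group, or number 6 of either male group. Ndn was not called without female ventral or dorsal replicate 2 or 3, and Kcnq1ot1 not without female ventral or dorsal replicate 2. The highest adjusted p over all alternative settings was 0.0881 for Dlk1, 0.0939 for Plagl1, 0.0759 for Ppp1r9a, 0.0643 for Ndn and 0.0880 for Kcnq1ot1. With the mean of the fibroblast or of the epicardial markers as a further covariate, limma called 0 of 15772 genes, with 9 and 12 members at an unadjusted p under 0.05, while edgeR and DESeq2 without it called 17 and 18 members.

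**Figure D3:**
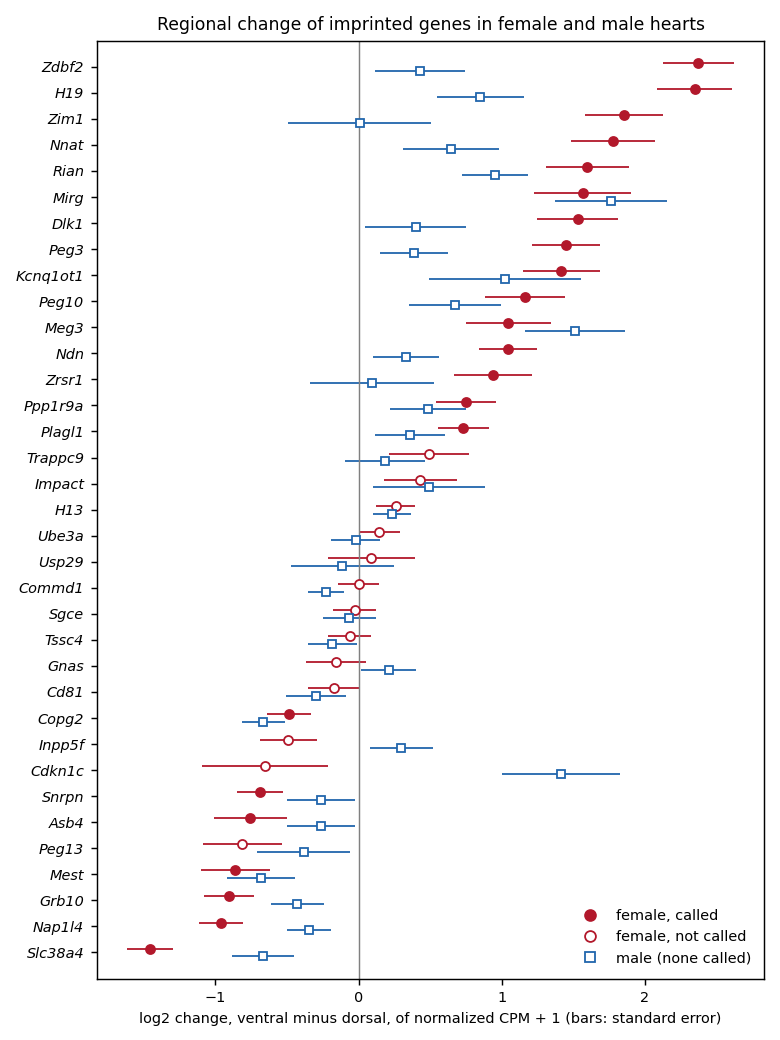
Log2 change between ventral and dorsal libraries of normalized CPM + 1 (horizontal axis), with standard errors, for the 35 imprinted genes tested in females, as circles for female hearts (filled where called) and squares for male hearts. Zdbf2 and H19 lie highest and Slc38a4 lowest in females, and most male squares lie nearer to 0.

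The regional change itself was compared between the sexes in a fit over all 4 groups. Zdbf2 was the only member called by limma, beside 2.73% of all genes, and 11 members had an unadjusted p under 0.05 (15.4% of all genes). The male change minus the female change was -1.94 ± 0.42 on the log2 scale (adjusted p = 0.0212), with a ventral rise in females and male groups that overlapped. Omission of female ventral replicate 2 or 3, of female dorsal replicate 1 or 2, or of male dorsal replicate 5 ended the call (adjusted p up to 0.0726), and 2 members were called without male ventral replicate 7 or male dorsal replicate 4. When libraries were paired by number 6 members were called, beside 5.10% of all genes. Of these, H19 (-1.72, adjusted p = 0.00445), Dlk1 (-1.33, adjusted p = 0.00426), Peg3 (-1.18, adjusted p = 0.0295) and Zdbf2 (-2.11, adjusted p = 0.00670) had a smaller change in males. Cdkn1c (1.84, adjusted p = 0.00675) and Slc38a4 (0.95, adjusted p = 0.0294) had a difference above 0. In the paired fits Cdkn1c was higher ventrally in males and dorsally in females. Without pairing Cdkn1c had a difference of 2.07 (adjusted p = 0.143). The markers differed in the same way, with 9 of 10 epicardial and 7 of 8 fibroblast markers below 0 in this contrast and median differences of -1.69 and -1.56, and none was called. When libraries were paired by number 7 of 10 epicardial, 5 of 8 fibroblast, 3 of 5 macrophage and 2 of 4 lymphatic markers were called with a smaller change in males, with medians of -1.99, -1.65, -1.28 and -1.004. With the fibroblast mean as a covariate the difference was -1.38 for Zdbf2 (adjusted p = 0.233, not called) and 3.77 for Cdkn1c (adjusted p = 0.0105, called).

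Between male and female libraries, with region as a covariate, Gnas, Ube3a and Cdkn1c were higher in females, and Meg3, Nnat, Tssc4 and H13 were higher in males. The 4 members higher in males compare with 4.40% of all genes and the 3 higher in females with 6.54%. Ventral and dorsal libraries of a number may share hearts and entered this test as separate points. With the numbers as a block the counts were again 4 and 3. No member had male libraries all above the female ones (1.29% of all genes), and for 2, Gnas and Ube3a, all female libraries were above all male ones (2.62% of all genes). After removal of the GC and length trend the counts were 2 higher in males (3.06% of all genes) and 3 in females (5.66%), and with DESeq2 they were 8 (6.50%) and 3 (8.20%).

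Gnas, on chromosome 2, 174284320 to 174346744, encodes the stimulatory G protein alpha subunit and further products from its imprinted start sites. It stood at 1349, 1798 and 1139.7 normalized CPM in female ventral libraries and 1480.4, 1599.7 and 1626 in female dorsal ones. Male ventral libraries held 779, 503, 533 and 451 and male dorsal ones 477, 511 and 450.4. The lowest female library was above the highest male one, with means of 1499 ± 231 (SD, n = 6) in females and 529 ± 114 (SD, n = 7) in males. The male level was 0.351 of the female one, a log2 difference of -1.51 ± 0.15 (adjusted p = 1.47e-05). Antisense transcripts share 18% of its windows.

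Ube3a, a ubiquitin ligase imprinted in neurons, stood at 149.7, 132 and 151 in female ventral and 149.8, 127 and 115 in female dorsal libraries, and at 74.8, 70.8, 62.3 and 50.3 ventrally and 65.2, 72.1 and 57.8 dorsally in male ones. No male library reached the lowest female one, and the log2 difference was -1.08 ± 0.11 (adjusted p = 2.97e-05). Antisense genes, Snhg14 among them, share 23.9% of its windows. Cdkn1c had means of 464 ± 279 (SD, n = 6) in female and 109 ± 68.5 (SD, n = 7) in male libraries. The highest male value (223) was above the lowest female one (189), and the log2 difference was -2.19 ± 0.42 (adjusted p = 0.00402). All 3 were called in each of 24 alternative settings.

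Meg3 was higher in males by 1.13 ± 0.26 (adjusted p = 0.0108) and Nnat by 1.302 ± 0.28 (adjusted p = 0.00799), in both cases with overlap between the sexes. Tssc4, a factor in assembly of the spliceosome, stood at 40.3, 45.1 and 38.2 ventrally and 40.4, 45.2 and 43.3 dorsally in female libraries and at 54.1, 65.2, 44.1 and 63.1 ventrally and 68.7, 65.5 and 57.6 dorsally in male ones, a log2 difference of 0.49 ± 0.11 (adjusted p = 0.0105). H13, a signal peptide peptidase, stood at 96.0, 99.8 and 92.8 ventrally and 91.7, 78.3 and 72.0 dorsally in females and at 115, 117, 143 and 119.5 ventrally and 105, 99.0 and 109 dorsally in males, a log2 difference of 0.36 ± 0.092 (adjusted p = 0.0198, and not called without female dorsal replicate 3 or without the eBayes trend). With the GC and length trend removed neither Tssc4 nor H13 was called. Of the epicardial markers 7 of 10 were called higher in males, with a median log2 difference of 1.24. With their mean as a covariate, Gnas (-1.34, adjusted p = 0.00125), Ube3a (-0.92, adjusted p = 0.00272) and Cdkn1c (-2.39, adjusted p = 0.0246) were called. In that fit Meg3, Nnat, Tssc4 and H13 were not called (adjusted p = 0.0682, 0.256, 0.0541 and 0.127), and H19 (-1.35, adjusted p = 0.00335) and Zdbf2 (-1.57, adjusted p = 0.00672) were called lower in males.

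**Figure D4:**
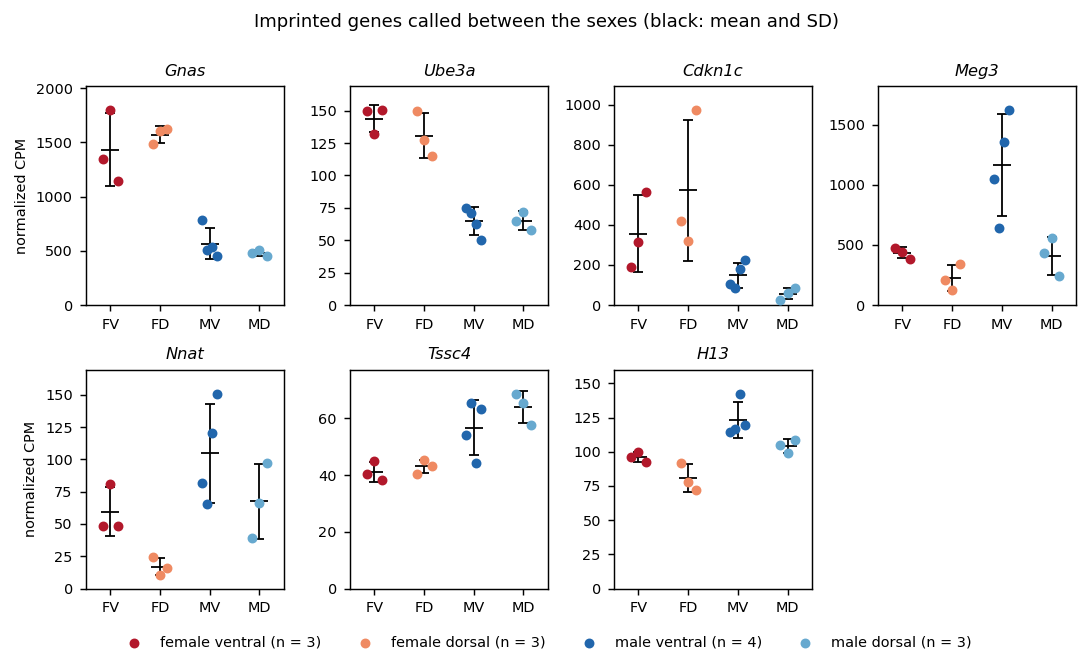
Normalized CPM (vertical axes, from 0) of the 7 imprinted genes called between the sexes, by library in 4 groups, with black bars for the mean and SD. For Gnas and Ube3a every female point lies above every male point, while the other genes overlap between the sexes.

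Co-variation within groups was measured for 26 pairs of members or neighbours, from the deviations of log2 values from the means of the 4 groups over the 13 libraries. In 2 pairs it passed the exact two-sided permutation test within groups after adjustment over the 26 pairs, and 8 had an unadjusted p under 0.05. Libraries of a number may share hearts, so the 13 points may not be independent. Meg3 and Mirg, of the same region, moved together with r = 0.853 (exact p = 0.000386, adjusted p = 0.0100) and rho = 0.852 (exact p = 0.000965, adjusted p = 0.0150). Without the 2 libraries farthest in Meg3 r was 0.802, and it was 0.946 in the 6 female and 0.816 in the 7 male libraries. The pair passed in 10 of 13 omissions of a single library, with r from 0.806 to 0.922. Dlk1 and H19, on different chromosomes, moved together with r = 0.827 (exact p = 0.00347, adjusted p = 0.0451) and rho = 0.775 (exact p = 0.00907, adjusted p = 0.0786), and r was 0.888 without the 2 farthest libraries. It was 0.970 in female and 0.755 in male libraries, and the pair passed in 3 of 13 single omissions, with r from 0.788 to 0.930.

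Pairs close to the threshold were Peg3 with Usp29 (r = 0.811, exact p = 0.00598, adjusted p = 0.0518, rho = 0.824, exact p = 0.00116, adjusted p = 0.0150) and Meg3 with Rian (r = 0.804, exact p = 0.00868, adjusted p = 0.0564, rho = 0.786, exact p = 0.0231, adjusted p = 0.145). Dlk1 and Meg3, which flank the same control region and are read from opposite parental copies, had r = 0.334 (exact p = 0.348, adjusted p = 0.503, rho = 0.505, exact p = 0.168, adjusted p = 0.365). H19 and its neighbour Igf2 had r = 0.328 (exact p = 0.293, adjusted p = 0.477, rho = 0.396, exact p = 0.238, adjusted p = 0.429). The 5 pairs of Plagl1 with H19, Dlk1, Cdkn1c, Mest and Peg3 had r from -0.431 to -0.00425, and no one of them passed. Of these 4 were above 0 in female and below 0 in male libraries, with r of 0.828 and -0.340 for H19, 0.738 and -0.632 for Dlk1, 0.816 and -0.677 for Cdkn1c, and 0.115 and -0.733 for Peg3, while Mest had -0.397 and -0.0817. Other pairs turned in the same way, namely Ndn with Snrpn (0.631 and -0.677), Gnas with Nnat (0.422 and -0.372) and Cdkn1c with Kcnq1ot1 (0.0733 and -0.457). Mest with Copg2 turned the other way (-0.391 and 0.844). The values within a sex rest on 6 female and 7 male libraries and were not tested.

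The summed markers were related to the same 4 genes in 8 relations added after the pairs had been seen. Dlk1 followed the epicardial sum with r = 0.900 (exact permutation p = 0.00810, adjusted p = 0.0517, rho = 0.824) and the fibroblast sum with r = 0.824 (exact permutation p = 0.0129, adjusted p = 0.0517, rho = 0.736). Without the 2 libraries farthest in the marker sum r was 0.876 and 0.733. H19 followed the epicardial sum with r = 0.734 (exact permutation p = 0.0212, adjusted p = 0.0566, rho = 0.720), and r was 0.546 without the 2 farthest libraries. H19 with the fibroblast sum had r = 0.573 (exact permutation p = 0.0874, adjusted p = 0.175, rho = 0.522), and 0.612 without the 2 farthest. Meg3 and Mirg had r of 0.302 and 0.180 with the fibroblast sum and 0.124 and -0.00550 with the epicardial sum. None of the 8 relations passed after adjustment.

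**Figure D5:**
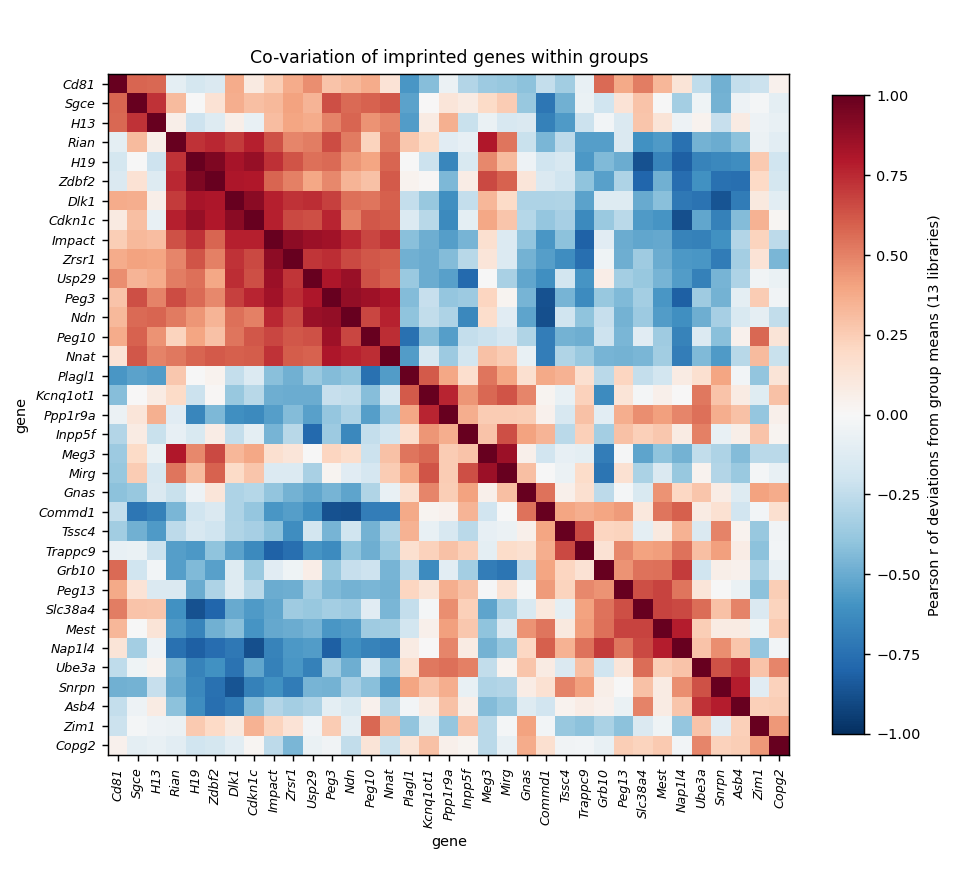
Pearson r between 35 imprinted genes of the deviations of log2(normalized CPM + 1) from the 4 group means over 13 libraries, with genes on both axes in the order of average-linkage clustering and colour from -1 (blue) to 1 (red). Rian, H19, Zdbf2, Dlk1 and Cdkn1c sit in a block of red cells with Peg3 and Ndn, and Meg3 and Mirg lie side by side. Phlda2 and Slc22a18 are left out.

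Imprinted genes outside the members were read from a list of 24, of which 19 were in the table. In females 5 of 16 tested (31.2%) were called higher ventrally (Igf2, Dcn, Ano1, Igf2r and Peg12) and 3 (18.8%) dorsally (Dhcr7, Mkrn3 and Blcap), beside 14.5% and 13.3% of all genes, with a median log2 change of 0.46. Dcn is also in the list of fibroblast markers counted above. Igf2, the growth factor next to H19, had a female log2 change of 1.25 ± 0.21 (adjusted p = 0.00328), beside 2.35 for H19. Of 8 listed factors that keep imprints, Ctcf, which insulates the H19 and Igf2 region (0.71 ± 0.18, adjusted p = 0.0171), and Setdb1, a histone methyltransferase (0.72 ± 0.24, adjusted p = 0.0491), were called higher ventrally in females. Zfp57 was called over both sexes (0.69 ± 0.19, adjusted p = 0.0233), where Ctcf and Setdb1 were not. Between the sexes 3 were lower in males, Trim28, the partner of Zfp57 (-0.85 ± 0.13, adjusted p = 0.000642), Ctcf (-0.73 ± 0.16, adjusted p = 0.00908) and Smchd1 (-0.47 ± 0.12, adjusted p = 0.0236), and Zfp57 was higher (0.66 ± 0.19, adjusted p = 0.0367).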

How the data were processed

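RNA of dissected epicardial and subepicardial layers was measured in 14 mouse libraries prepared with poly(A) selection and single-end reads. According to the study's methods and processing notes, the authors trimmed adapters with Cutadapt, quantified reads on the GRCm38 transcriptome with RSEM (version 1.3.1 in the processing notes, an earlier version in the methods), normalized with limma and removed genes of low count. The deposited signal is a normalized CPM per gene and library. Every value was a whole number of reads plus 0.5 over an effective library size (100% of values within 0.02 reads), so reads were recovered, from 13918995 to 25221314 per library, which sets the counting error. Use of strand in counting is not given in the sources used here. Positions, exon lengths and GC content came from GENCODE M21 on GRCm38, and promoters and microRNAs from RefSeq.

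Tests used limma 3.58.1 in R 4.3.3 (trended eBayes) on log2(value + 1), over all genes that reached a value of 1 in 3 or more libraries tested, with Benjamini-Hochberg adjustment and calls under 0.05. A fold is on that scale and understates the change of low genes. Floors were set at 3 reads. Co-variation was tested by exact permutation within groups (5184 permutations, smallest p 0.000193, numpy 2.4.6 and scipy 1.17.1). Alternatives were other pseudocounts, filters, normalizations, edgeR 4.0.16 and DESeq2 1.42.0 on recovered reads, removal of a GC and length trend, a replicate block, and each library left out. The main limma fit and the edgeR and DESeq2 fits were tested on simulated data, and the other alternatives were not. Libraries of a number deviated together over 15772 genes (correlations 0.187, 0.169 and 0.270 for numbers 1 to 3, and 0.427, 0.175 and 0.351 for 4 to 6). Libraries of different numbers were not compared in this way. The main fits did not use the numbers, and the replicate block took them as pairs. Male ventral replicate 7 had no partner of settled region. For the test between the sexes the block entered as a consensus correlation, which was 0.0124. P-values measure the spread between libraries, which the main fits took as independent. All members may be named, and values per library are given for those called in any comparison and for the best known. The members and lists were chosen with earlier results of these data known.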

Additional observations from a re-analysis of the deposited data

Results flagged for a closer look

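Among the 37 imprinted genes, Mirg stood apart in a single library of the male ventral group, the one group large enough for such a test. Male ventral replicate 5 held 10.1 normalized CPM of Mirg, against 16.1, 17.01 and 16.7 in the other 3 libraries, and was still above the highest male dorsal library (7.73). Chance gives about 1 such library in 20 groups, and 1 was found among 37 genes. Zdbf2 was the member whose change between the faces differed between the sexes, by -1.94 on the log2 scale (limma adjusted p = 0.0212). The same difference had medians of -1.69 for the epicardial and -1.56 for the fibroblast markers, none of which was called without pairing, while the fit paired by number called 7 of 10 epicardial (median -1.99) and 5 of 8 fibroblast markers (median -1.65). With the mean of either list as a covariate Zdbf2 was not called (adjusted p = 0.233 with fibroblast and 0.117 with epicardial markers).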

How the results depend on the processing

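No called member changed direction under any alternative other than the 2 covariates added later. For members called between the faces in females (22), leaving out a library gave 14 to 19, and each added covariate, the mean of the fibroblast or of the epicardial markers, gave 0. In males (0), DESeq2 gave 5 and the replicate block 2. Over both sexes (18), each covariate gave 0. Between the sexes (7), DESeq2 gave 11. For the difference of the regional change (1), DESeq2 gave 3, the replicate block 6 with or without the GC and length trend removed, and leaving out a library 0 to 2. The replicate block changed no other call than those given above and that of Cdkn1c in females. For pairs (2), leaving out a library gave 0 to 4, with 0 without male ventral replicate 5 or 7, and leaving out the 2 libraries farthest from the median gave 0. Within each sex only r was computed, with no count. The covariates were added after the data were seen. With the fibroblast mean, the sign turned in females for Rian (-0.075), Peg3 (-0.30), Mest (0.085), Ndn (-0.14) and Peg10 (-0.13), over both sexes for Dlk1 (-0.13), Peg3 (-0.091) and Ndn (-0.034), and in the difference between the sexes for Dlk1 (0.10) and Peg3 (0.053). With the epicardial mean it turned in females for Dlk1 (-0.58), Snrpn (0.086) and Asb4 (0.86), over both sexes for Dlk1 (-0.20), and in the difference between the sexes for Dlk1 (0.075). No one of these was called. In females region and marker sums did not overlap, so their parts cannot be told apart. Depth limited Phlda2 and Slc22a18.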

Other observations

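The male library without a settled region held 674 normalized CPM of H19, 509 of Dlk1, 669 of Meg3 and 58.8 of Rian. It held 328 of Slc38a4, 1855 of Mest and 1797 of Grb10. For Gnas (472) and Ube3a (63.2) it lay within the range of the other male libraries, and for Cdkn1c (92.8) as well.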
